A study of Rattus norvegicus with 9 samples.

Results

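Homeobox, Fox, Sox, Pax and T-box genes encode transcription factors that set up organs in the embryo, and several of them run the adult hair follicle. They were followed here in rat back skin after imiquimod, a Toll-like receptor agonist cream that induces a psoriasis-like inflammation. The genes were taken by symbol: Hox, Dlx, Msx, Fox, Tbx, Lhx or Irx at the start, or Pax, Sox or the sine oculis prefix of Six5 followed by a digit, leaving out Foxp3, Tbx21, Sox10 and antisense genes. This rule found 43 gene IDs among the 6197 gene IDs in the deposited tables. Of these, 41 encode transcription factors under 40 symbols, since Hoxa5 is listed under 2 gene IDs. The other 2, Foxred1 and Tbxas1, encode enzymes that share only the letters of their symbols and are described apart. In RefSeq's rat annotation the same 10 families hold 154 protein-coding symbols, of which 40 were listed, among them 6 of 40 Hox, 4 of 6 Dlx and 10 of 45 Fox symbols.

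RNA came from Sprague Dawley rats of 250 g, all wild type, in 3 groups of 3 libraries. Untreated skin received nothing. The imiquimod group was treated on the back for 6 days. The third group received the same imiquimod and, from day 3, epidural injections of 1% lidocaine, a local anaesthetic, for 4 days, and skin was collected on day 7. The labels give neither the age of the rats nor whether each library is a separate animal, so p-values measure the spread between these libraries. The first deposited table sets imiquimod against untreated skin (6025 rows) and the second sets imiquimod with lidocaine against imiquimod (399 rows). All 43 genes were in the first table and 0 in the second.

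Homeodomain proteins bind DNA through a shared helical domain, and Fox, Sox and T-box proteins carry DNA-binding domains of other kinds. In the growing follicle, Dlx3, Msx2, Hoxc13 and Foxn1 act in the cells that build the hair shaft and its sheath, downstream of Wnt and BMP signals. Lhx2, Sox9, Tbx1 and Foxc1 are known from mouse as factors of the follicle stem cells in the bulge.

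The RefSeq promoter table (build GRCr8) held 25 of the 40 symbols, with 26 starts. The 250 bases before the start of 3 of them are shown, because they belong to the gene with the largest fall (Dlx1), the gene with the most CpG dinucleotides (Lhx2) and the gene with the largest rise (Pax8) among those matched. CpGs are in capitals, and each sequence is given 5′ to 3′ on the gene's own strand.
Dlx1, chr3:76763614-76763863, plus strand: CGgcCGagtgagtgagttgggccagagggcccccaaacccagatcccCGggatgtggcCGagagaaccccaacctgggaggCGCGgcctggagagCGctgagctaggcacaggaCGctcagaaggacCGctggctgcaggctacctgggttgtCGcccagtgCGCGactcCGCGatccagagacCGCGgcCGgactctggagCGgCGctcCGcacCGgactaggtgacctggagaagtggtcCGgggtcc
Lhx2, chr3:42535494-42535743, plus strand: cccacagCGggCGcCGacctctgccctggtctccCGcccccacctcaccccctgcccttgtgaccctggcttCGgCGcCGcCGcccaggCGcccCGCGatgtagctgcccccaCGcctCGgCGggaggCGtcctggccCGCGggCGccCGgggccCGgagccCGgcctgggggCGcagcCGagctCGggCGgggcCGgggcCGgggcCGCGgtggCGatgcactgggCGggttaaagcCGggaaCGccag
Pax8, chr3:27640632-27640881, minus strand: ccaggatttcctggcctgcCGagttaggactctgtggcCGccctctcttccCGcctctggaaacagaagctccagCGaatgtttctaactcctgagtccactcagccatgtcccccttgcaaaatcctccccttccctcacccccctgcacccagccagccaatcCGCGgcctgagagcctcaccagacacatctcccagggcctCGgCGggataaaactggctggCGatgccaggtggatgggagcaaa
These windows hold 22, 33 and 9 CpGs. Over the 26 starts the median was 15.5 CpGs, with a range of 4 to 33, against a median of 8 over 21851 protein-coding promoters in the table. The median GC content was 68%, against 54%. The letters GGGCGG, the GC box, searched on both strands, were in 19 of 26 windows (73.1%) and in 38.9% of all promoters. TATAAA, the TATA box, and TAATTA, a core bound by many homeodomains, were each in 1 window (3.85%), both times that of Tbx19, and in 12.1% and 4.42% of all promoters. CTTTGA, a core bound by Lef and Tcf proteins, was in 3 windows (11.5%), those of Hoxa11, Irx1 and Sox21, and in 12.9% of all promoters. Both Lhx2, which fell, and Foxn3, whose higher mean did not pass the test, had over 30 CpGs. The sequence at the start itself was ATG for 1 of the 26 starts (3.85%), that of Msx2, and for 12.96% of all promoters. Such a start may be that of the coding sequence, and its part in these contrasts was not tested.

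After imiquimod most of these genes fell. Of the 41 transcription factor rows, 30 fell, 6 rose and 5 did not pass the test (limma, Benjamini-Hochberg adjustment over all 6025 rows, threshold 0.05), and the median log2 difference was -2.05. Over all rows of the table the median was 1.15. How the authors chose the rows is not given, but the group means of every listed row differ by at least 1.001 on the log2 scale. Of all rows 87.8% passed the same test, 40.8% as lower and 47% as higher. The share of factors that passed, 87.8%, therefore says nothing about these genes. Among rows that passed, 83.3% of the factors were lower, against 46.45% of all rows. Counting Foxred1 and Tbxas1, 38 of 43 passed, 30 lower and 8 higher. Subtracting the median of all rows from each library moves every difference by 0.63 on the log2 scale; the split of all passing rows then went from 53.55% higher and 46.45% lower to 41.79% and 58.21%, and the factors stood at 32 lower and 4 higher. No sign could change with this recentring, because the shift is smaller than the least difference of any listed row, 1.001.

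**Figure D1:**
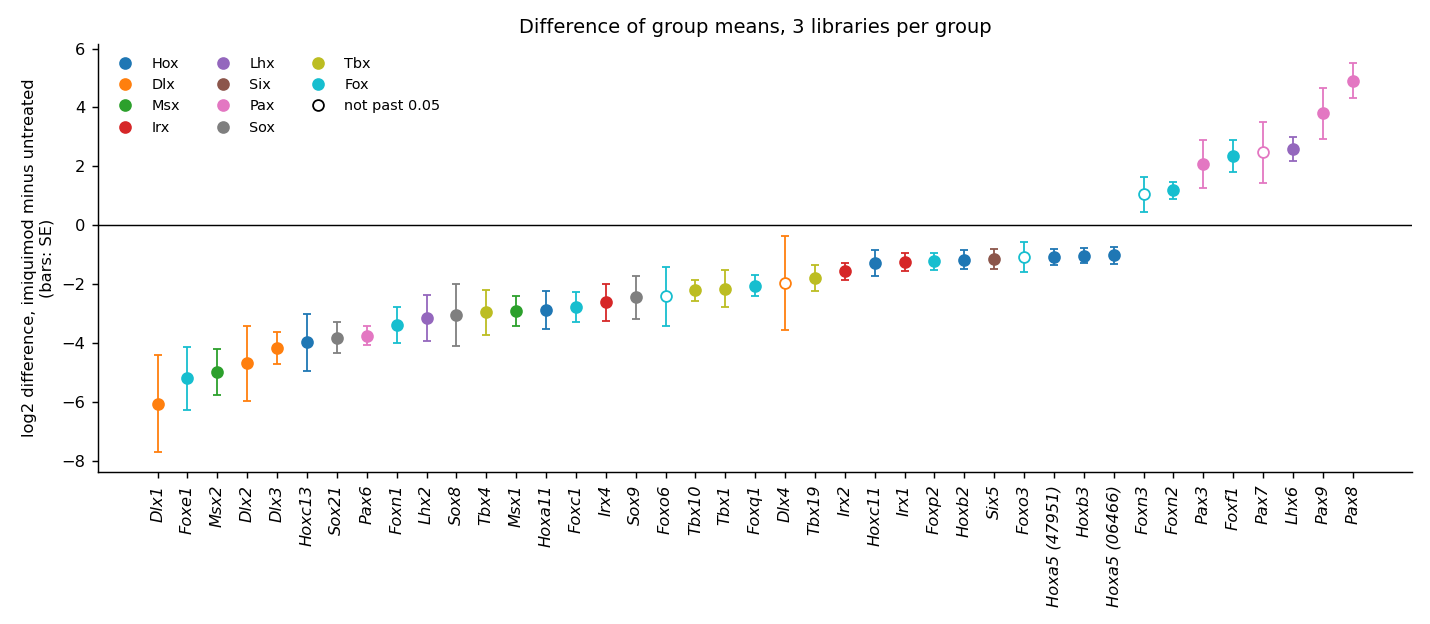
Difference of group means (imiquimod minus untreated, log2 scale, 3 libraries per group) for the 41 transcription factor rows, ordered by size and coloured by family; bars are standard errors and open points did not pass 0.05. The factors run from Dlx1 at -6.06 to Pax8 at 4.91, and 4 of the 8 points above 0 are Pax genes.

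The plot of differences shows the order of the families. The Dlx, Msx, Sox, Tbx, Irx and Hox rows and Six5 all lay below 0, with medians of -4.43 for Dlx, -3.95 for Msx, -3.03 for Sox, -2.18 for Tbx, -1.56 for Irx, -1.17 for Hox and -1.15 for Six5 alone. The Fox family was mixed and had a median of -1.64, and the 2 Lhx genes went in opposite directions. In the Pax family 4 of 5 rows had higher means, and the median was 2.47. In 38 of the 41 rows (92.7%) the 3 untreated and the 3 imiquimod libraries did not overlap, against 86.7% of all rows in the table. The exceptions were Dlx4, Foxn3 and Pax7. A lower level in whole skin can come from fewer cells of a type or from less RNA per cell, and these cannot be told apart here.

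**Figure D2:**
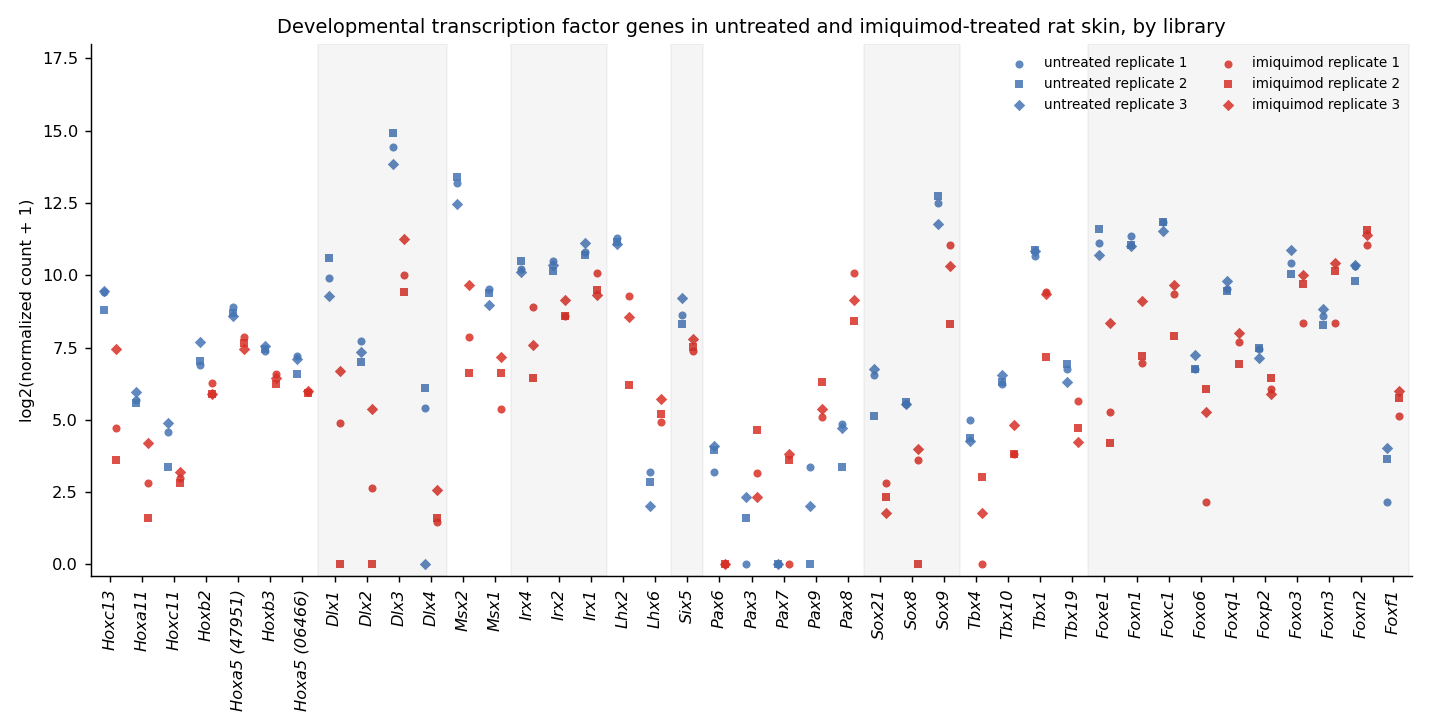
Level of each transcription factor gene in every library, as log2(normalized count + 1), with untreated libraries in blue and imiquimod libraries in red; grey and white bands separate the families, and marker shapes give the replicate. Imiquimod replicate 2 (red squares) is often the lowest point, as in Dlx1, Hoxc13, Lhx2 and Sox9.

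Factors of the hair shaft and inner root sheath fell. Dlx3, required in mouse for the hair shaft and inner root sheath, had normalized counts of 22255, 31033 and 14695 in untreated replicates 1, 2 and 3 and of 1029, 688 and 2447 in imiquimod replicates 1, 2 and 3. Its mean was 22661 ± 8176 untreated and 1388 ± 933 after imiquimod (SD, n = 3), a ratio of 16.3, with a log2 difference of -4.17 (SE 0.55, adjusted p = 0.00139). Every treated library lay far below every untreated one. Msx2, a factor of hair shaft differentiation and hair cycling in mouse, had 9464, 10816 and 5716 untreated and 231, 97.2 and 803 treated (-4.99, SE 0.78, adjusted p = 0.00244). Its relative Msx1, best known from tooth and palate development, had 739, 676 and 499.6 untreated and 40.9, 98.2 and 142 treated (-2.91, SE 0.50, adjusted p = 0.00343). In both Msx genes the groups were widely apart, and the treated library with the highest value was replicate 3.

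Hoxc13, which switches on hair keratin genes and whose loss leaves mice without normal hair, had 692, 445 and 694 normalized counts untreated and 25.3, 11.1 and 175 treated. The log2 difference was -3.97 (SE 0.97, adjusted p = 0.0105). Imiquimod replicate 3 stood well above the other 2 treated libraries and still below the lowest untreated one. Foxn1, the gene mutated in nude mice, had 2639, 2116 and 2083 untreated and 125, 146 and 556 treated (-3.38, SE 0.60, adjusted p = 0.00379). Foxe1, whose loss in humans gives spiky hair together with thyroid and palate defects, had 2194, 3111 and 1679 untreated and 37.5, 17.2 and 329 treated (-5.20, SE 1.05, adjusted p = 0.00579). Foxq1, mutated in satin mice with an altered hair medulla, had 737, 706 and 884 untreated and 207, 120.4 and 256 treated (-2.05, SE 0.36, adjusted p = 0.00358). In each of these Fox genes the treated replicate 3 was the highest of its group, and no treated library reached an untreated one.

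Sox21, a factor of the hair shaft cuticle whose loss causes cyclic hair loss in mice, had 92.1, 34.1 and 106 untreated and 6.10, 4.05 and 2.45 treated. The log2 difference was -3.82 (SE 0.53, adjusted p = 0.00159). Here the treated replicate 3 was the lowest, unlike in the genes above. Dlx1 and Dlx2, neighbouring genes best known from forebrain and jaw development, fell together. Dlx1 had 948, 1543 and 621 untreated and 28.7, 0 and 101 treated (-6.06, SE 1.65, adjusted p = 0.0149), and Dlx2 had 209.6, 127 and 163 untreated and 5.23, 0 and 40.9 treated (-4.68, SE 1.28, adjusted p = 0.0152). Both had no read in imiquimod replicate 2, and without that library the difference was -4.14 for Dlx1 and -3.35 for Dlx2. Dlx4, which lies next to Dlx3, had 41.5, 68.2 and 0 untreated and 1.74, 2.02 and 4.90 treated, so its groups overlapped through untreated replicate 3 (-1.97, SE 1.59, adjusted p = 0.262). Without that library it was -3.89 with an adjusted p of 0.00288.

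Factors of the follicle stem cells and the outer root sheath were lower as well. Lhx2, which maintains the stem cells of the bulge in mouse, had 2480, 2297 and 2172 untreated and 619, 72.9 and 378 treated. Its mean went from 2316 ± 155 to 357 ± 274 (SD, n = 3), with a log2 difference of -3.16 (SE 0.78, adjusted p = 0.0111). The untreated libraries lay close together, and the treated ones spread with replicate 2 at the bottom. Sox9, required for the outer root sheath and the stem cell niche, had 5833, 6819 and 3500 untreated and 2127, 318 and 1263 treated (-2.45, SE 0.74, adjusted p = 0.0206). The groups did not overlap, but the call was lost without untreated replicate 1 (adjusted p = 0.0592) or untreated replicate 2 (adjusted p = 0.0637). Tbx1, needed for self-renewal of mouse follicle stem cells, had 1636, 1898 and 1830 untreated and 689.8, 145 and 649.8 treated (-2.15, SE 0.64, adjusted p = 0.0199). It lost the call without untreated replicate 2 (adjusted p = 0.0555) or 3 (adjusted p = 0.0507), and without imiquimod replicate 2 it passed with a smaller difference of -1.41.

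Foxc1, which holds mouse follicle stem cells in quiescence, had 3690, 3650 and 2958 untreated and 660.2, 238 and 806 treated (-2.76, SE 0.50, adjusted p = 0.00407). Its treated libraries were all far below the untreated ones. Sox8, of the same subgroup as Sox9, had 46.1, 47.5 and 45.6 untreated and 11.3, 0 and 14.7 treated (-3.03, SE 1.05, adjusted p = 0.0326). The 3 untreated values were nearly equal, and imiquimod replicate 2 had no read. The Sox8 call was lost without untreated replicate 1 (adjusted p = 0.0765), 2 (adjusted p = 0.0793) or 3 (adjusted p = 0.0757), and without imiquimod replicate 2 the difference was -1.77 with an adjusted p of 0.00676.

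Hair keratin genes fell after imiquimod as well. Of 16 hair matrix and cortex markers 11 were listed and all 11 fell, with a median log2 difference of -7.55. Their summed normalized counts ranged from 882320 to 1786100 in untreated skin and were 11893, 214.55 and 76093 in imiquimod replicates 1, 2 and 3. The inner root sheath and companion layer list (9 of 10 listed, 9 lower) summed to between 1326700 and 2505800 untreated and to 46548, 3310.3 and 204380 treated. Replicate 2 was thus lowest and replicate 3 highest in both lists. Among the 30 factor rows that fell, imiquimod replicate 2 was the lowest treated library in 18 (60%) and replicate 3 the highest in 17 (56.7%). Over all 2456 rows that fell, the shares were 51.1% and 38.3%. The sebaceous gland list (7 of 9 listed, 7 lower) summed to between 43198 and 71052 untreated and between 1892.6 and 3137.2 treated, and there imiquimod replicate 1 was the lowest. No marker of these 3 lists that was in the table was at 0 reads throughout a group. The part of these cell types in the fall of the factors was not tested.

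**Figure D3:**
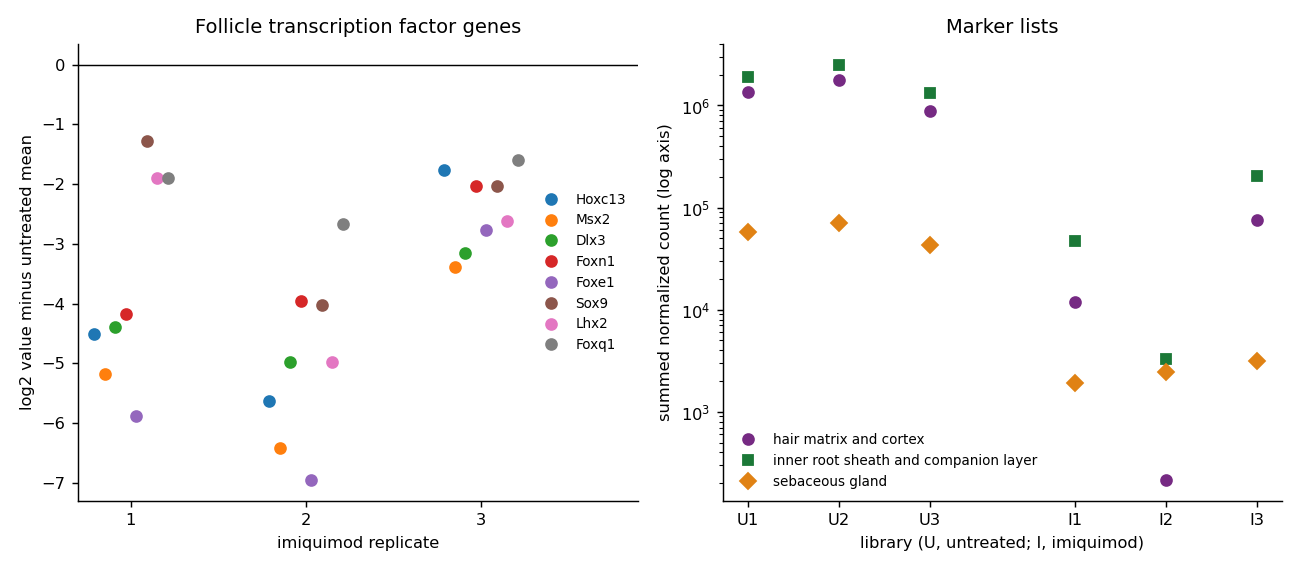
Left, log2 value of 8 follicle factors in each imiquimod library minus the untreated mean, with genes set side by side; right, summed normalized counts of hair matrix and cortex, inner root sheath and companion layer, and sebaceous gland markers in each library on a log axis. Imiquimod replicate 2 is the lowest for 7 of the 8 factors, Foxn1 being lowest in replicate 1, and it has the lowest sum of the hair matrix list, 214.55.

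The panels set the factors beside the hair markers. For Msx2 the treated libraries stood at -5.17, -6.41 and -3.38 relative to the untreated mean, and for Sox9 at -1.29, -4.02 and -2.04, so replicate 2 was low in both but the spacing differed.

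The other Hox genes and the Irx genes, factors of position along the body in the embryo, fell as well. Hoxa11, known from limb and uterus development, had 50.7, 46.5 and 61.8 untreated and 6.10, 2.02 and 17.2 treated (-2.88, SE 0.65, adjusted p = 0.00828). Hoxb3, a hindbrain patterning gene, had 166, 174 and 189 untreated and 95.8, 74.9 and 86.6 treated (-1.03, SE 0.25, adjusted p = 0.0107). Within each group its libraries were close together. Hoxa5, known from lung and neck patterning, was listed under 2 gene IDs, so the level of the gene as a whole is uncertain. Under ENSRNOG00000047951 it had 476, 414 and 388 untreated and 232, 199 and 176 treated (-1.07, SE 0.26, adjusted p = 0.0106). Under ENSRNOG00000006466 the untreated libraries ranged from 95.0 to 147 and the treated ones from 59.7 to 62.1 (-1.02, SE 0.28, adjusted p = 0.0160), and the call was lost without untreated replicate 1 (adjusted p = 0.0578). In both entries every treated library was below every untreated one.

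Hoxb2, another hindbrain gene, ranged from 117 to 205 untreated and from 58.7 to 76.6 treated (-1.17, SE 0.32, adjusted p = 0.0157). Hoxc11, a neighbour of Hoxc13 beyond Hoxc12, ranged from 9.30 to 28.4 untreated and from 6.07 to 8.17 treated (-1.27, SE 0.45, adjusted p = 0.0350). This call is the weakest of the Hox genes: it was lost in 5 of the 6 runs that leave out 1 library, all but the one without untreated replicate 2. The adjusted p was 0.103 without untreated replicate 1, 0.0904 without untreated replicate 3, and 0.0716, 0.0914 and 0.0652 without imiquimod replicates 1, 2 and 3. A row with the symbol NEWGENE_2813, which the annotation describes as homeobox A2 and which the symbol rule does not take, fell by 1.28 on the log2 scale (SE 0.39, adjusted p = 0.0211). Antisense genes run through the Hox clusters, and whether counting used strand is not given here, so their reads cannot be told apart from those of the Hox genes.

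The 3 listed Irx genes, Iroquois factors of embryonic patterning, lie next to each other in RefSeq's gene order. Irx4, a ventricle factor in the heart, had 1186, 1431 and 1099 untreated and 479.9, 87.0 and 189.6 treated (-2.62, SE 0.62, adjusted p = 0.00971). Irx2 had 1450, 1135 and 1323 untreated and 385, 388 and 562 treated (-1.56, SE 0.29, adjusted p = 0.00423). Irx1 had 1806, 1651 and 2197 untreated and 1073, 727 and 638 treated (-1.24, SE 0.31, adjusted p = 0.0118). All 3 were lower in every treated library than in any untreated one, but the lowest treated library was replicate 2 for Irx4, replicate 1 for Irx2 and replicate 3 for Irx1. Among members with at most 5 genes between them in RefSeq's order there were 9 pairs, and the 2 genes of each pair differed in the same direction. These were Dlx1 with Dlx2, Dlx3 with Dlx4, Foxc1 with Foxq1, Hoxa5 with Hoxa11, Hoxb2 with Hoxb3, Hoxc11 with Hoxc13 and the 3 pairs of Irx genes. All of these genes had lower means, as did 33 of the 41 factor rows, so the shared direction says nothing about neighbours as such. Dlx4 did not pass the test.

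The remaining T-box genes also fell. Tbx10 had 74.9, 77.5 and 92.2 untreated and 13.1, 13.2 and 27.0 treated (-2.21, SE 0.36, adjusted p = 0.00285). Tbx19, the factor that drives the hormone precursor gene Pomc in the pituitary, had 107, 122 and 79.0 untreated and 49.6, 25.3 and 17.98 treated (-1.80, SE 0.43, adjusted p = 0.0103). Tbx4, known from hindlimb and lung development, had 31.1, 19.6 and 18.2 untreated and 0, 7.08 and 2.45 treated (-2.94, SE 0.76, adjusted p = 0.0128). In all 3 genes every treated library was below every untreated one. Six5, which lies beside the myotonic dystrophy kinase gene in humans, had 393, 315 and 594 untreated and 165, 182 and 219.9 treated (-1.15, SE 0.33, adjusted p = 0.0182). Foxp2, known for its role in speech in humans, ranged from 139.9 to 179.7 untreated and from 58.9 to 86.0 treated (-1.23, SE 0.28, adjusted p = 0.00883).

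Foxo3 and Foxo6, forkhead factors held back by insulin signalling, did not pass. Foxo3 ranged from 1058 to 1855 untreated and from 326 to 1039 treated (-1.09, SE 0.51, adjusted p = 0.0777), and without imiquimod replicate 1 its difference was -0.59 (adjusted p = 0.148). Foxo6 ranged from 106 to 152 untreated and from 3.48 to 66.8 treated (-2.41, SE 1.00, adjusted p = 0.0565). The treated values of Foxo6 spread widely, and it passed without imiquimod replicate 1 (-1.24, adjusted p = 0.0276) or imiquimod replicate 2 (-3.20, adjusted p = 0.0294).

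Pax6, the eye development gene, was the exception in its family. It had 8.06, 14.5 and 16.2 normalized counts untreated, from 7, 14 and 16 reads, and 0 reads in all 3 treated libraries. Taking 3 reads per library as the floor, it was at least 4.78-fold lower after imiquimod (log2 difference -3.75 on the scale with 1 added, SE 0.33, adjusted p = 0.000314). These are few reads, and no treated library had any.

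The other Pax genes had higher means. Pax8, a thyroid and kidney factor, had 27.6, 9.30 and 25.3 untreated and 1077, 344 and 562 treated. Its mean went from 20.8 ± 9.99 to 661 ± 377 (SD, n = 3), a ratio of 31.8 and a log2 difference of 4.91 (SE 0.59, adjusted p = 0.000974). Every treated library was more than 10 times the highest untreated one. Pax9, a factor of tooth and thymus development, had 9.21, 0 and 3.04 untreated and 33.1, 77.9 and 40.9 treated (3.80, SE 0.87, adjusted p = 0.00850). Pax3, a factor of melanocyte and muscle precursors, had 0, 2.07 and 4.05 untreated and 7.84, 24.3 and 4.09 treated, from 0, 2 and 4 and from 9, 24 and 5 reads (2.07, SE 0.81, adjusted p = 0.0488). The groups touched, since the lowest treated value was hardly above the highest untreated one.

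The Pax3 call was lost without untreated replicate 1 (adjusted p = 0.131), untreated replicate 2 (adjusted p = 0.0876), imiquimod replicate 1 (adjusted p = 0.0904) or imiquimod replicate 2 (adjusted p = 0.133). Pax7, the factor of muscle satellite cells, is given in full because it had no read in untreated skin, a choice made after its values were seen. It had 0, 11 and 16 reads in imiquimod replicates 1, 2 and 3. With 3 reads per library as the floor of untreated skin, the treated mean was 2.52-fold higher. That is no lower bound, because imiquimod replicate 1 had no read either. Pax7 did not pass (2.47, SE 1.02, adjusted p = 0.0563), and it passed without imiquimod replicate 1 (3.71, adjusted p = 0.000702). Beside Pax3, 6 of 7 melanocyte markers were listed, 5 of them fell, and their sum ranged from 4943.6 to 8708.7 untreated and from 1385.7 to 2482.5 treated. Beside Pax7, only 1 of 9 skeletal muscle markers was listed, Casq1, which fell. Neither marker list had a listed gene at 0 reads in a group, and their part in the Pax values was not tested.

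**Figure D4:**
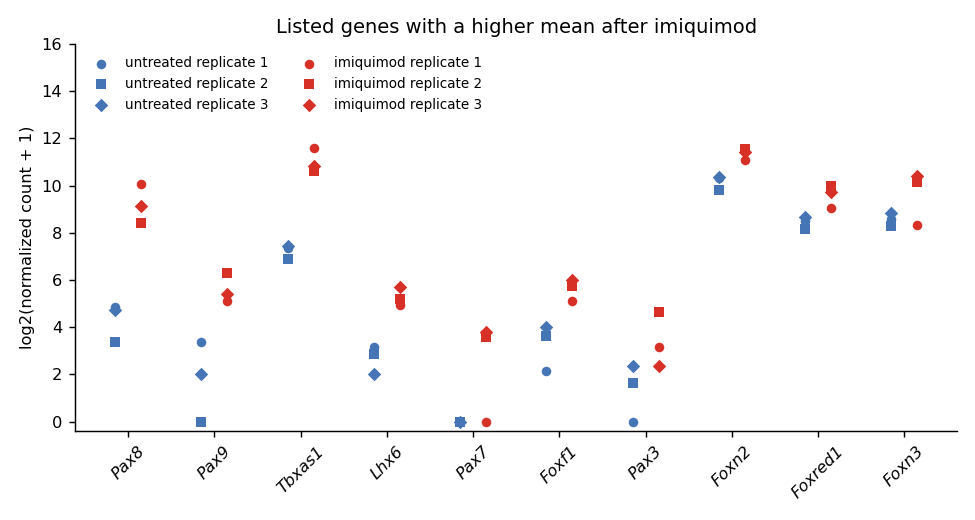
Level of the 10 listed genes with a higher mean after imiquimod, as log2(normalized count + 1), in each untreated (blue) and imiquimod (red) library, ordered by the difference of means; marker shapes give the replicate. Pax8 has the widest gap, and Foxn3 and Pax7 are the genes whose groups overlap.

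The plot of the genes with higher means shows that most of the gaps were clear of the spread between libraries. Lhx6, a factor of cortical interneurons, had 8.06, 6.20 and 3.04 untreated and 29.6, 35.4 and 51.5 treated (2.60, SE 0.41, adjusted p = 0.00250). Foxf1, a factor of lung mesenchyme and vessels, had 3.46, 11.4 and 15.2 untreated and 34.0, 52.6 and 62.1 treated (2.35, SE 0.55, adjusted p = 0.00932). In both genes each treated library was above each untreated one. Of 10 blood endothelium markers 4 were listed and 4 rose, with sums from 2730.3 to 4299 untreated and from 6684.6 to 12396 treated, and their part in the Foxf1 value was not tested.

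Foxn2, another forkhead gene, had 1270.4, 897 and 1301 untreated and 2138, 2999 and 2716 treated (1.18, SE 0.30, adjusted p = 0.0116). After recentring on the median of all rows its difference was 0.56 with an adjusted p of 0.122. Foxn3 had 387, 311 and 460.1 untreated and 322, 1133 and 1363 treated, so imiquimod replicate 1 lay inside the untreated range (1.05, SE 0.59, adjusted p = 0.124). Without that library it was 1.70 with an adjusted p of 0.0066.

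The enzymes that carry matching letters both rose. Tbxas1, which makes thromboxane A2 in platelets and macrophages, had 162, 117 and 172 untreated and 3064, 1576 and 1835 treated (3.79, SE 0.36, adjusted p = 0.000411). Of 7 macrophage and monocyte markers 6 were listed and 6 rose, with sums from 7746.9 to 16270 untreated and from 79386 to 102290 treated, and their part in the Tbxas1 value was not tested. Foxred1, an assembly factor of respiratory complex I, had 361, 288 and 407 untreated and 528, 999.9 and 853 treated (1.13, SE 0.34, adjusted p = 0.0213). The Foxred1 call was lost without untreated replicate 1 (adjusted p = 0.0558) or 2 (adjusted p = 0.0630) and without imiquimod replicate 2 (adjusted p = 0.0623) or 3 (adjusted p = 0.0629), and its recentred difference was 0.51 with an adjusted p of 0.175.

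Other genes of the same circuits were read from 3 further lists. Of 57 other homeobox genes 20 were listed, 8 higher, 9 lower and 3 not past the threshold. Their median log2 difference was 0.11, against -2.05 for the factors above. Recentring on the median of all rows lowers every difference by 0.63, which would place the median of 0.11 below 0. Pou2f2, an octamer-binding factor of B cells and macrophages, had from 10.1 to 25.3 normalized counts untreated and from 1299.7 to 1826 treated (6.31, SE 0.42, adjusted p = 0.000134). Of 5 B cell markers 3 were listed and rose, with sums from 16.1 to 24.8 untreated and from 90.1 to 114 treated and with Cd79b at 0 reads in untreated skin, and their part in the Pou2f2 value was not tested. Barx2, a factor expressed in hair follicles, fell by 2.40 on the log2 scale (SE 0.32, adjusted p = 0.00134). Hhex rose by 1.98 (SE 0.29, adjusted p = 0.00194) and Pitx1, a hindlimb factor, by 2.43 (SE 0.42, adjusted p = 0.00336).

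Of 48 other transcription factors of follicle and skin 24 were listed, 19 lower, 4 higher and 1 not past the threshold, with a median of -1.56. Lef1, the nuclear partner of beta-catenin in Wnt signalling, fell by 3.21 on the log2 scale (SE 0.45, adjusted p = 0.00169), Elf5 fell by 2.60 (SE 0.33, adjusted p = 0.00125), and Gata3, a factor of the inner root sheath, fell by 2.57 (SE 0.35, adjusted p = 0.00144). Runx3, a factor of cytotoxic T cells, rose by 6.89 (SE 0.87, adjusted p = 0.00117), and 9 of 10 T cell markers were listed and rose, with sums from 697.28 to 2086.7 untreated and from 18410 to 24612 treated. The part of T cells in the Runx3 value was not tested.

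Of 40 signals that act upstream of these factors in the follicle 25 were listed, 21 lower, 1 higher and 3 not past the threshold, with a median of -1.83. The Wnt ligand Wnt11 had 1492, 1767 and 1241 untreated and 111, 170.0 and 257 treated (-3.13, SE 0.38, adjusted p = 0.00106). Of the bone morphogenetic proteins, Bmp4 fell by 2.72 on the log2 scale (SE 0.35, adjusted p = 0.00122) and Bmp2 fell by 2.41 (SE 0.38, adjusted p = 0.00258), and the receptor Fgfr3 fell by 1.78 (SE 0.31, adjusted p = 0.00343). The signal that rose was Fgf7, a growth factor that fibroblasts send to keratinocytes, at 2.37 (SE 0.58, adjusted p = 0.0109). Of 10 dermal papilla and fibroblast markers 6 were listed, 4 of them fell and 1 rose, and their sum ranged from 1661300 to 3755600 untreated and from 364880 to 379050 treated.

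No member was in the table of imiquimod with lidocaine against imiquimod. That table lists 399 rows chosen by the authors, 128 of which (32.1%) passed the test, so a gene that is not in it cannot be called unchanged. Of the 3 lists above 8 genes were in it. Otx1, a homeobox gene of forebrain development, was the one that passed. It had 5.23, 6.07 and 4.90 normalized counts with imiquimod and 0.98, 0 and 0 with lidocaine added, from 6, 6 and 6 and from 1, 0 and 0 reads (-2.35, SE 0.48, adjusted p = 0.0144). Its call was lost without imiquimod replicate 1 (adjusted p = 0.0523). The other 7 were Pou2f3, Tp63, Bnc1, Grhl1, Wnt3, Fgfr3 and Edaradd, with differences from -1.61 to -1.06 and adjusted p from 0.0667 to 0.0869. The groups of the 2 tables share the imiquimod libraries.

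Each library had 15947423 to 22929894 reads on the rows of the first table and 417714 to 803921 on those of the second, and 1 read was worth 0.817 to 1.24 normalized counts. Of the 43 member rows a mean of 10 normalized counts or more was reached by 40 and a mean of 100 or more by 26. Basal and interfollicular keratinocyte markers, which check the labelled tissue, were read in the imiquimod table, where 4 of 8 were listed. They summed to between 451940 and 511910 untreated and between 353410 and 799140 treated. Their directions differed, with 1 higher, 2 lower and 1 not past the threshold, and the median log2 difference was -2.45. Levels are not compared between genes, because gene lengths were not used.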

How the data were processed

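Total RNA of 9 rat back skin samples was sequenced, 3 per group, and titles gave the groups. RNA was extracted with TRIzol and libraries were made by a standard Illumina protocol, per the labels' protocols. Tools named in the submitters' processing notes are bcl2fastq, the aligner STAR 2.5.3a and DESeq2. Not given in the sources used here are the build, the annotation, how reads were counted, whether strand was used and how rows were chosen.

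The authors deposited 2 tables of log2(normalized count + 1), 6025 and 399 rows with gene ID and symbol. The smallest difference of group means among the rows is 1.001 on the log2 scale. The rows were picked from these same libraries, which makes adjusted p-values too small. The imiquimod libraries have equal values in both tables (largest difference 4.97e-09). After removal of the log, every value up to 2000 reads was a whole multiple of 1 read's worth (tolerance 0.01), so reads could be recovered. Folds against a group at 0 use a floor of 3 reads per library and cover counting error only, as no molecular identifiers are named.

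Each table was tested alone with limma 3.58.1 (lmFit, eBayes, two-sided) in R 4.3.3 on the deposited log2 values, with Benjamini-Hochberg adjustment over its rows and a threshold of 0.05. Differences on this scale understate those of low genes. The test was also run on simulated tables whose rows, unlike the deposited ones, were not picked by their difference. That run does not cover the effect of picking rows. Tables used python 3.11.15, numpy 2.4.6 and pandas 2.3.3, and plots matplotlib 3.10.9. Replicates of a group were no repeats of 1 library: chi-square over degrees of freedom was 130.3 to 713.4, far above sampling noise.

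All members are accounted for by name. Values in every library are given for up to 4 genes per family with the smallest adjusted p, for genes whose direction is the rarer in their family, and for a panel of follicle factors (Hoxc13, Msx2, Dlx3, Foxn1, Sox9, Sox18, Lhx2, Foxe1, Tbx18 and Foxq1, of which Sox18 and Tbx18 are not listed). Of other lists, up to 4 genes with the smallest adjusted p are named; Fgf7 and the genes in the lidocaine table were added after their values were seen. Members, lists and panel were chosen with earlier results of these data known. Alternatives were a pseudocount of 0.1, a minimum mean of 10 or 100, adjustment over the 23154 protein-coding genes of RefSeq, a variance trend, a replicate block, recentring and dropping each library in turn. Promoters came from RefSeq's GRCr8 table.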

Additional observations from a re-analysis of the deposited data

How the results depend on the processing

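Among the 13 alternatives of the imiquimod comparison, direction could change only with pseudocount 0.1 or with 1 library left out. No member changed direction in these. Minimum means, the RefSeq adjustment, the variance trend and the replicate block leave each difference as it is. Recentring shifts differences by 0.63, less than the smallest difference of any row, 1.001. Of the 38 members that passed, 24 did so in every setting that tested them, and 31 in every run that left out 1 library. The same counts over all rows are not given here. With a minimum mean of 100 normalized counts, which leaves 26 members to test, 24 members passed and 2 factors were higher. Of all rows, 3967 of 4257 passed in that setting. Elsewhere the number of members that passed ran from 27, when p-values were adjusted over all protein-coding genes of RefSeq, to 39. Of all 6025 rows, 3733 passed the RefSeq adjustment, so these counts alone say nothing particular about the members. That adjustment ended the calls of Dlx1, Dlx2, Foxred1, Hoxa5 (ENSRNOG00000006466), Hoxb2, Hoxc11, Pax3, Six5, Sox8, Sox9 and Tbx1. Pseudocount 0.1 ended those of Pax3, Sox8 and Tbx4, the variance trend those of Hoxc11 and Pax3, and recentring those of Foxn2, Foxred1 and Pax3, while Foxo3 and Foxo6 then passed.

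The labels state no pairing of samples by replicate number. Deviations from the group mean of samples with the same number correlated at -0.0237, -0.232 and -0.0138 in the imiquimod table. In the lidocaine table they correlated at -0.183, -0.0943 and -0.0641. These values show no positive link by number, but they cannot exclude a shared batch, because the spread between libraries is large. With a replicate block 35 members passed, 28 factors lower and 6 higher, and 4756 of all 6025 rows passed. Hoxa5 (ENSRNOG00000006466), Hoxb2, Hoxb3, Foxred1 and Pax3 no longer passed, and Foxo6 and Pax7 did.

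In the lidocaine table, where no member is listed and 128 rows passed limma, 56 passed with pseudocount 0.1, 1 with a minimum mean of 10, 0 with a minimum mean of 100 (118 at an unadjusted p under 0.05) and 2 when adjusted over RefSeq genes. Leaving out each library gave 22 to 147, with a replicate block 92, and Otx1 lost its call in the adjustment over RefSeq genes. Recentring turned the split of rows that passed there from 34.38% higher and 65.62% lower to 84.21% and 15.79%. The causes were not tested. Depth limits Pax3, Pax6, Pax7 and Otx1, which rest on at most 24 reads in any library. Other members also had few reads in at least 1 group. Among them, Tbx4 had 0, 7 and 3 and Hoxc11 8, 6 and 10 reads in imiquimod replicates 1, 2 and 3. Pax9 had 8, 0 and 3 and Lhx6 7, 6 and 3 reads in untreated replicates 1, 2 and 3.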
